A study of Mus musculus with 20 samples.

Results

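The 10 arrays of wild type mouse embryonic fibroblasts were taken from a series of 20 and described as a baseline, without any comparison with the other genotype. They were chosen by their titles. The fibroblasts are labelled as coming from wild type embryos at 13.5 days post coitum. Each title holds a pair of numbers, taken here for embryo and culture, which gives 3 embryos with 3, 3 and 4 cultures and 1 array for each culture. Nothing in the labels states the strain, the sex or the passage of the cells. The other 10 arrays, of E2F4 null cells, were not used. Signals were averaged over the cultures of an embryo and then over the 3 embryos, so n = 3 embryos below unless cultures are named. The brightest probe set stood for each gene, and 12393 genes were ranked.

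Embryonic fibroblasts are the migratory, matrix-making connective tissue cells that grow out when the body of a mouse embryo is dissociated and plated. In culture they lay down fibrillar collagen and fibronectin, build contractile actin bundles and divide in response to serum. Such outgrowths start from mixed tissue, so blood, vessel, muscle, nerve or epithelial cells may be carried along with them.

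The deposited arrays all had a trimmed mean signal of 500.2, and their median signals lay between 137 and 145. Arrays of the same embryo correlated across probe sets at r = 0.986 to 0.991 and arrays of different embryos at r = 0.973 to 0.987. Each of the 10 arrays was closest to another culture of the same embryo. The ratio of 3' to 5' control signals was 0.716 to 0.764 for Gapdh and 1.097 to 1.178 for Actb. A signal depends on how well a probe set hybridises as well as on the transcript, so the ranking below is one of signals and not of mRNA amounts. Whether fewer cells of a type or less RNA per cell lies behind a low signal cannot be told apart in such bulk samples.

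The brightest gene was Lgals1, which encodes the sugar-binding lectin galectin-1, with signals of 24547, 31479 and 27086 in wild type embryos 1, 2 and 3. It was followed by Vim, the intermediate filament protein vimentin of mesenchymal cells, at 20562, 26401 and 23947. The cytoplasmic actins came next, Actg1 with a mean of 22131 ± 1724 (SD) and Actb with 21949 ± 3033. Then came Eef1a1, the elongation factor that brings aminoacyl-tRNA to the ribosome, at 21791 ± 2565, and the translationally controlled protein Tpt1 at 21161 ± 2087. Tmsb10, an actin monomer binding thymosin (19659 ± 2185), the ribosomal proteins Rpl38 (19507 ± 1728) and Rps28 (19389 ± 1213) and the smooth muscle actin Acta2 (19385 ± 4328) completed the 10 brightest. Lgals1 was above Vim in every embryo by the probe sets used. By the second probe set of each gene, Vim had a mean of 17465 and Lgals1 16405, so that order depends on the probe set. From Vim on, neighbours lay closer together than the SD between embryos, so their order is not resolved. Of these, 8 genes were among the 10 brightest in every embryo.

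**Figure D1:**
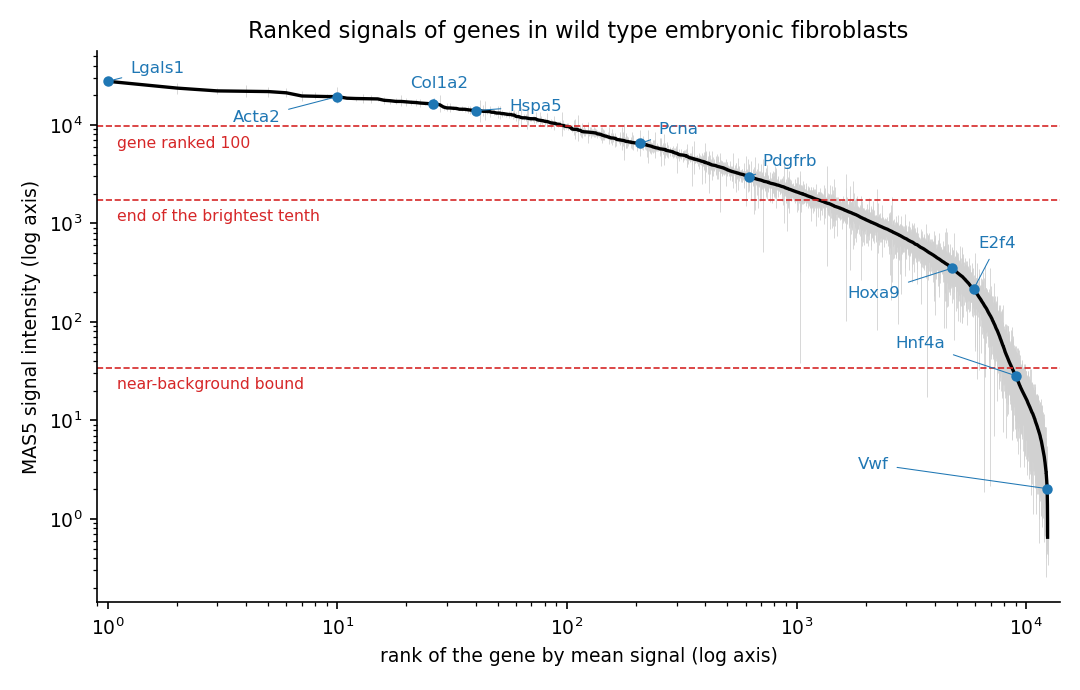
Mean MAS5 signal intensity (vertical, log axis) of 12393 genes against their rank (horizontal, log axis) over 3 wild type embryos, as the black line. Grey bars run from the lowest to the highest embryo mean, and red dashed lines mark the signal of the gene ranked 100 (9654), of the last gene of the brightest decile (1738) and the near-background bound (34.2). The genes with blue points run from Lgals1 at 27704 to Vwf at 2.03.

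The signal was concentrated in few genes. The 100 brightest genes, 0.807% of those ranked, held 15.8 ± 0.883% (SD) of the summed signal, and the brightest decile, of 1239 genes, held 60.9 ± 0.987%. Genes that make proteins, move and shape the cell or build matrix filled most of the places among the 100 brightest. Ribosomal protein and translation factor genes took 43, the cytoskeleton and contractile lists 20, and the matrix lists 12, while 16 genes were in none of the lists. Those 16 included Nme2, a nucleoside diphosphate kinase and the only one of them among the 30 brightest, at 15178 ± 1008. The others, named only because they fall outside the lists, were led by Rtn4, Arf1 and Akr1a1. The gene ranked 100 was Eef2, a translation elongation factor, at 9654 ± 688, and the first gene outside was Postn, the matrix protein periostin, at 9612 ± 837. The values on either side of that limit thus lay closer together than embryos did.

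Ribosomal protein genes were the brightest class, with a median signal of 13432 over 49 measured genes, against 182 over all genes. Of these, 34 were among the 100 brightest and 37 in the brightest decile. Rps29, a small subunit protein, had almost the same signal in each embryo, at 18503, 18724 and 18773. By contrast Rplp0, a protein of the ribosomal stalk, stood at 13388 and 14172 in embryos 1 and 3 and at 20276 in embryo 2. Not all members were bright. Rps27 had 218 ± 64.1, Rpl39 103 ± 11.3 and Rpl3l, a paralog of Rpl3 known from striated muscle, 9.59 ± 4.34. Ribosomal proteins have many processed pseudogenes, so single ribosomal signals are uncertain. Over all 100 brightest genes, ribosomal or not, the names of 70 probe sets end in _x_at, _s_at or _a_at. The array maker gives such endings to probe sets shared by several transcripts, which may be of the same gene, or prone to cross-hybridise.

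Translation factors had a median of 4553 over 45 genes, of which 35 lay in the brightest decile and none near background. Besides Eef1a1 and Tpt1, the brightest were Eif5a, a hypusine-carrying elongation factor (16310 ± 964), the poly(A) binding protein Pabpc1 (14136 ± 1394) and Npm1, nucleophosmin of the nucleolus (13932 ± 771). The dimmest was Eef1a2, the form of the elongation factor known from muscle and neurons, at 149 ± 30.3.

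The actin cytoskeleton list had the highest share of bright genes among all lists, with 37 of 42 in the brightest decile, 13 among the 100 brightest and a median of 6419. After Vim, the actins and Tmsb10 came the thymosin Tmsb4x at 17295 ± 2395, on the X chromosome, and the membrane-binding annexin Anxa1 at 13728 ± 3220. The lowest values in the list were still well above the median of all genes, Ezr, the membrane-actin linker ezrin, at 420 ± 85.3 and Myl6, a myosin light chain, at 481 ± 35.8. Tubulin genes were more divided. Tuba1a (13233 ± 673) and Tubb5 (11541 ± 923) were among the 100 brightest, while Tuba3b had 10.8 ± 3.68. Near background lay 3 of 14, against 30.04% of all genes.

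Genes of smooth muscle contraction, which fibroblasts are known to express when they turn contractile in culture, were also bright. Of 25 measured, 16 were in the brightest decile and 7 among the 100 brightest. Acta2 had signals of 17177, 24372 and 16607 in embryos 1 to 3. Ccn2, a secreted matricellular protein, had 13921 ± 3702, Cald1, the actin-binding caldesmon, 13746 ± 1900, and Tagln, transgelin, 11616 ± 2307. The tropomyosin Tpm1 had 11532 ± 1734 and the calponin Cnn3 11206 ± 453. At the other end Myh11, the heavy chain that marks mature smooth muscle, had 52.1 ± 27.0, and Pdlim3 was near background at 16.7 ± 13.1.

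Serum response factor binds a DNA element known as the CArG box in many actin and contractile genes, and stretches of the RefSeq promoters (GRCm38.p6) that hold a match are printed for 4 of these genes, because contractile genes differed together between the embryos. The match is in capitals, and each stretch runs across the annotated start of transcription except that of Myl9, which ends before it.
Actg1 (chr11:120348476-120348635, minus strand): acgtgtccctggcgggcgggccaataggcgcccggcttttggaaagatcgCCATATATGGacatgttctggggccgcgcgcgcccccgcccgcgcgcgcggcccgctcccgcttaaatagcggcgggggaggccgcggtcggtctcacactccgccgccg
Cnn2 (chr10:79988460-79988619, plus strand): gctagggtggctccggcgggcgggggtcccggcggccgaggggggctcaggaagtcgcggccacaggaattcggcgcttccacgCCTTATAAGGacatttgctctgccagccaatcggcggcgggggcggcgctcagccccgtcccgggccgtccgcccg
Myl9 (chr2:156775284-156775443, plus strand): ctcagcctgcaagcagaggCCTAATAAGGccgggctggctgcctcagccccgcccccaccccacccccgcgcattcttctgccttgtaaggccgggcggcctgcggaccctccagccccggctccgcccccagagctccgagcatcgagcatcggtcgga
Acta1 (chr8:123894756-123894915, minus strand): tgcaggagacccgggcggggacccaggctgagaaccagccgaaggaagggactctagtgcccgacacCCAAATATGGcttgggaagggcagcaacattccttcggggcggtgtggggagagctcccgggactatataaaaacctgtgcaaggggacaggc
The match lies at position -90 from the start site in Actg1, -56 in Cnn2, -161 in Myl9 and -73 in Acta1, the skeletal muscle actin. These 4 genes were picked after their values were seen, and their mean signals ran from 22131 in Actg1 to 1616 in Acta1. The CArG box, searched on both strands with no mismatch, stood in windows of 4 of the 20 contractile genes with a window and of 12.8% of the actin cytoskeleton genes. Among all array genes with a window it stood in 1.75%. A window ran from 250 bases before to 50 bases after a start site, and a match in it is a description and not a binding site.

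The promoter of Vim, the second brightest gene, holds TATAAA, the core of the TATA box, in capitals here.
Vim (chr2:13574171-13574330, plus strand): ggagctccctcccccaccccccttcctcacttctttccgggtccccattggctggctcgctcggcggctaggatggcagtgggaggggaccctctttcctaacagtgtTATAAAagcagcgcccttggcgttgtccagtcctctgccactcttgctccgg
In this window TATAAA begins at position -32. It was present for 17.5% of the 100 brightest genes, 10.5% of the brightest decile, 11.9% of all array genes and 19.1% of the genes near background, counting both strands. The GC box core GGGCGG was present for 768 of 1024 genes of the brightest decile with a window, 61.1% of all array genes and 36.3% of the genes near background. The median window held 23 CpG dinucleotides in the brightest decile and 6 near background.

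Matrix genes made up a second bright group, though a divided one. Among 36 collagen genes, 10 were in the brightest decile and 11 near background, which is 30.6%, close to the 30.04% of all genes. Fibrillar collagen chains led, with Col1a2 at 15516, 17336 and 16146 in embryos 1, 2 and 3, Col5a2 at 13179 ± 2031, Col1a1 at 13002 ± 556 and Col3a1 at 12132 ± 2433. Col5a1 had 8030 ± 576, and Col6a3, a chain of the beaded filament collagen, 5695 ± 1817. Col26a1 (6.88 ± 1.70), the basement membrane chain Col4a4 (6.67 ± 0.271) and the cartilage chain Col9a2 (6.51 ± 3.96) were the dimmest. By the middle rather than the brightest probe set of each gene, 1 collagen gene was among the 100 brightest in place of 4.

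Among 59 glycoprotein and proteoglycan genes the median was 765. The small proteoglycan Bgn, biglycan (14866 ± 1479), fibronectin, Fn1 (14848 ± 1573), the collagen-binding Sparc (13648 ± 1705) and thrombospondin 1, Thbs1 (11713 ± 2992), were among the 100 brightest. The laminin chain Lama1 was dimmest at 12.0 ± 2.76. Genes that fold, cross-link and cleave matrix had a median of 1174 over 40 genes, of which 16 were in the brightest decile. Serpinh1, the collagen chaperone of the endoplasmic reticulum, led at 12742 ± 1069, before lysyl oxidase, Lox (10385 ± 1742), and the prolyl hydroxylase subunit P4hb (10149 ± 490). The protease Ctsl had 9027 ± 2156 and the inhibitor Timp1 8715 ± 1061, while Plau, the urokinase gene, lay near background at 26.0 ± 1.69.

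Chaperone and oxidative phosphorylation genes were bright. In the brightest decile lay 28 of 33 cytosolic chaperone and proteostasis genes, 30 of 41 chaperone and translocation genes of the endoplasmic reticulum, and 59 of 89 genes of oxidative phosphorylation. Hspa5, the chaperone BiP, had 13956 ± 709 and the constitutive chaperone Hspa8 13441 ± 296. Cox6a1, a subunit of cytochrome c oxidase, had 11146 ± 2120, and the muscle form Cox7a1 17.97 ± 1.64. The glycolysis genes ranked here were dimmer, with a median of 610 and 6 of 19 in the brightest decile. Pgk1 at 8448 ± 1225 and Ldha at 7405 ± 853 headed them. The list held 22 genes, and the level of those without a rank is not known here.

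Cell division genes were all above background, 44 of 44 for DNA replication and 53 of 53 for mitosis. Of the replication genes 8 were in the brightest decile, with Pcna, the sliding clamp of DNA polymerase, at 6478 ± 717, the reductase subunit Rrm2 at 4590 ± 729 and the helicase subunit Mcm7 at 3291 ± 853. Tyms, thymidylate synthase, had 67.0 ± 29.7. Of the mitotic genes 16 were in the brightest decile, with the ubiquitin-conjugating enzyme Ube2s at 4410 ± 190, the condensin subunit Smc4 at 3900 ± 834 and Cdc20, which activates the anaphase-promoting complex, at 3776 ± 953. The dimmest was the phosphatase Cdc25c at 117 ± 26.7.

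CCAAT boxes, bound by the factor NF-Y, are a known mark of mitotic gene promoters, and they are shown in capitals for Cdc20, the topoisomerase Top2a and the kinase Cdk1. Here ATTGG is the same element read on the other strand. Top2a and Cdk1 were picked after their values were seen. The printed genes were taken from mitotic genes that hold CCAAT in a window and passed the threshold in embryo 2 (below). They therefore do not stand for the whole list.
Cdc20 (chr4:118437324-118437483, minus strand): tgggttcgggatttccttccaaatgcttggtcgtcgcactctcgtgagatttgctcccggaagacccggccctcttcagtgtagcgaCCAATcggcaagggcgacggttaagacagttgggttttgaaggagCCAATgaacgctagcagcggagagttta
Top2a (chr11:99024170-99024329, minus strand): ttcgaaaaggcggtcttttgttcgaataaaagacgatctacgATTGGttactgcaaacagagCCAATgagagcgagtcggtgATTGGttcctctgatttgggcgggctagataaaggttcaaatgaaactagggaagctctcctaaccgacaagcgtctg
Cdk1 (chr10:69352893-69353052, minus strand): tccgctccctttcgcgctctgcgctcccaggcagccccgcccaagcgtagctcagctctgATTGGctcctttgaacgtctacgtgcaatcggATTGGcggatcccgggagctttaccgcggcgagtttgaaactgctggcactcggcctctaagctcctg
Top2a has 3 such elements in the printed stretch, at positions -98, -78 and -58, and Cdc20 and Cdk1 have 2 each. CCAAT stood in windows of 72.7% of the mitotic genes, 57.9% of the replication genes and 42.3% of all array genes, while among ribosomal protein genes it stood in 27.9%.

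Genes that control entry into the cycle were of middle brightness, with a median of 417 over 26 genes. The D cyclin Ccnd2 led at 7872 ± 1520, followed by its kinase Cdk4 at 3448 ± 382. The inhibitor Cdkn1a had 3020 ± 1309 and Cdkn2b 1585 ± 78.5. E2f4, the gene removed in the arrays not used here, had a single probe set and signals of 209, 212 and 221 in embryos 1, 2 and 3, at rank 5897. The 3 embryo means lay closer together than the cultures of any 1 embryo, which ran from 188 to 226 in embryo 1, 196 to 226 in embryo 2 and 202 to 230 in embryo 3. The other E2F genes ranked were E2f6 (807 ± 95.1), E2f5 (307 ± 28.3), E2f1 (273 ± 23.6), E2f8 (233 ± 55.1) and E2f3 (119 ± 30.6), and their partner Tfdp1 had 1930 ± 289.

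Growth factor genes ranged from among the brightest to background. In the brightest decile lay 14 of 51, and near background 7, against 30.04% of all genes. After Ccn2 came the related Ccn1 at 7189 ± 951 and Igf2, the imprinted embryonic growth factor, at 6207 ± 1328. Next were the binding protein Igfbp7 (6185 ± 2414) and pleiotrophin, Ptn (3723 ± 1444). Fgf10, an inducer of limb and lung buds, was the dimmest at 8.01 ± 3.54. Growth factor receptors were dimmer as a group, with a median of 351 over 47 genes. The brightest were Tnfrsf12a (3773 ± 361), the receptor kinase Axl (3655 ± 503) and the PDGF receptor Pdgfrb (2974 ± 751), followed by Ddr1, a collagen receptor, at 1938 ± 378. Insr (18.9 ± 6.78) and Kit (16.1 ± 2.68) lay near background by the probe sets used.

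Immediate early genes, which serum induces within minutes to hours, had a median of 765 over 23 genes. Egr1, a zinc finger factor, was brightest at 3734 ± 2116 and Jun followed at 2294 ± 607, while Fosb was near background at 19.2 ± 1.99. Among cytokine and chemokine genes Mif (6526 ± 289), the prostaglandin synthase Ptgs2 (5848 ± 617) and Cxcl12 (2493 ± 1138) were bright, and 8 of 27 lay near background, the dimmest being Nos2 at 4.43 ± 1.74. Imprinted genes held 6 of 21 places in the brightest decile, with Gnas at 7716 ± 538 and Grb10 at 5624 ± 208, and 6 near background, down to Phlda2 at 5.995 ± 2.81. The near-background shares of cytokine genes (29.6%) and imprinted genes (28.6%) were close to that of all genes, 30.04%.

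Genes listed as fibroblast markers ran from among the brightest genes to background, with a median of 1134. Of 27 measured, 12 were in the brightest decile and 3 near background. After Lgals1 and Vim the brightest were the calcium-binding S100a4 (12896 ± 855) and the follistatin-like glycoprotein Fstl1 (11544 ± 762). Next came gelsolin, Gsn (8845 ± 3344), and the hyaluronan receptor Cd44 (8151 ± 816). The near-background markers were Clec3b (11.2 ± 4.58), Dpp4 (8.13 ± 2.75) and Pi16 (7.68 ± 1.76), of which the last pair is known from fibroblast progenitors of adult tissue. Mesenchymal transcription factor genes had a median of 221 over 38 genes. The limb and craniofacial homeobox factor Prrx1 was brightest at 4070 ± 1315, followed by Foxp1 (1719 ± 199) and the zinc finger factor Zeb1 (1405 ± 42.5), while Osr2 (24.3 ± 8.76) and Tcf21 (22.5 ± 3.85) lay near background. HOX genes, which keep a record of position along the body, were dimmer, with none of 31 in the brightest decile. The brightest were Hoxa9 (352 ± 46.9), Hoxb2 (309 ± 136), Hoxa11 (253 ± 27.8) and Hoxc8 (242 ± 53.7), and 8 lay near background, the dimmest being Hoxb13 at 4.16 ± 1.61. The near-background share of all genes was 30.04%.

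The bound for near background came from a list of genes known for other organs or cells, such as retina, pancreas, lymphocytes and sperm. The 73 of them on the array had a median signal of 13.0 and ran from 1.54 to 173, and their 90th percentile, 34.2, was taken as the bound. By it 3723 genes, or 30.04%, lay near background, and together they held 0.595 ± 0.0747% (SD) of the summed signal. The genes next to the bound were Sema4f at 34.2 ± 9.55 and Lgals4 at 34.1 ± 2.08. In every embryo 3287 genes lay under it, and a further 844 did so in some embryos only. With the 75th or 95th percentile as the bound, the count was 2986 or 4222.

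Markers of most other lineages lay near background. This held for 15 of 16 hepatocyte genes, 21 of 23 pluripotency and germ cell genes, 9 of 11 erythroid genes, 15 of 20 endothelial genes, 22 of 34 neural and glial genes, 14 of 22 epithelial genes and 18 of 28 skeletal muscle genes, against 30.04% of all genes. The bound was itself set from genes of other organs, 65 of 73 of which lay under it by that choice. Some genes, such as Odf1 and Gfap, are in that list and in a lineage list. These counts are therefore not independent of the bound. Among the dimmest were the clotting factor gene Fgb (0.960 ± 0.336), the endothelial Vwf (2.03 ± 1.17), the keratin Krt15 (2.55 ± 0.556), the myogenic factor Myf6 (2.84 ± 0.486) and the embryonic globin Hbb-y (3.16 ± 2.82). The brightest hepatocyte gene, Apoa2, and the brightest erythroid gene, Epor, were close to the bound at 37.5 and 41.2. Other lists had members well above it. Stmn2, known from growing axons, had 1132 ± 326, the adhesion molecule Ncam1 1044 ± 219, the VEGF receptor Flt1 351 ± 107, the keratin Krt19 222 ± 64.9, and the cartilage chain Col11a1 1463 ± 367. Adhesion genes were divided, with Cd44, the integrin Itgav (6382 ± 1214) and the mesenchymal cadherin Cdh11 (5888 ± 1098) bright and 18 of 42 near background.

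Macrophage and leukocyte genes were less dim, with 3 of 26 near background, and so were adipocyte genes, with 4 of 17, and cartilage and bone genes, with 10 of 22. For all genes the share was 30.04%. Among the macrophage genes lysozyme led, Lyz1 with 1935 ± 552 and Lyz2 with 894 ± 202, followed by the CSF1 receptor, Csf1r (364 ± 106), the protease Ctss (269 ± 84.2) and the complement chains C1qa (208 ± 92.5) and C1qb (189 ± 52.0). No marker was at 0, and the dimmest were Fcgr1 (27.4 ± 9.71), Aif1 (16.1 ± 5.75) and the integrin Itgam (13.7 ± 4.804). Whether macrophages were present in the cultures was not tested. All 26 together held 0.0626 ± 0.0169% (SD) of the summed signal.

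**Figure D2:**
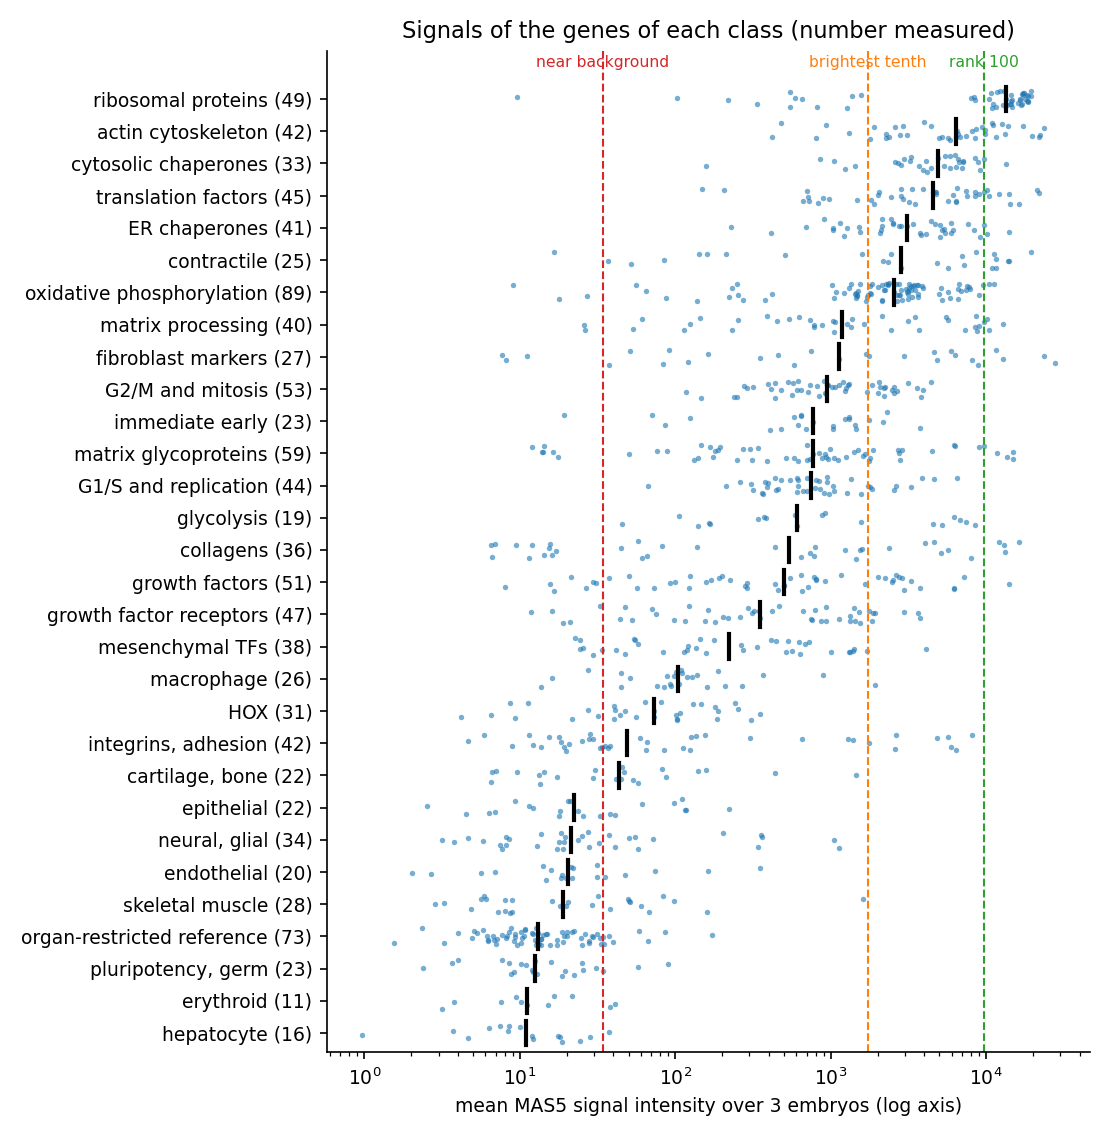
Mean MAS5 signal intensity over 3 wild type embryos (horizontal, log axis) of each measured gene, as blue points, in 30 gene classes ordered by their median, the black bar. Dashed lines mark the near-background bound (34.2), the brightest decile (1738) and the gene ranked 100 (9654), and the medians run from 13432 for ribosomal proteins to 11.004 for hepatocyte genes.

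Signals of bright genes varied least. Among the 100 brightest, the median coefficient of variation between embryos was 7.48%, and 72 of them varied by less than 10%. Over the 7436 genes tested the median was 10.6%, and 3496 varied by less than 10%. Among the 100 brightest there were 8 above 20%, of which the actin-severing Dstn was highest at 33.0%, followed by Ccn2 (26.6%), Thbs1 (25.5%), Rplp0 (23.7%), Anxa1 (23.5%), Hnrnpab (23.3%), Acta2 (22.3%) and Col3a1 (20.1%). Of the 100, 89 were among the 100 brightest in every embryo, and 112 genes were so in at least 1 embryo. Of the brightest decile, 1088 genes were in it in every embryo. On the scale log2(signal + 16), the median SD between embryos was 0.116 in the brightest decile and 0.244 in the 7th, and the SD between cultures of an embryo rose from 0.0746 to 0.276. Below the 7th decile the added 16 compresses the scale.

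The steadiest of the bright genes were Tcf25, Eif3k, Ptpn11, Manf and Canx. Canx, the membrane chaperone calnexin, had signals of 5432, 5462 and 5423 in embryos 1 to 3, and Ptpn11, the phosphatase SHP2, 2092, 2077 and 2083. In both the cultures of an embryo differed by more than the embryo means. For Tcf25 the other 3 probe sets differed in embryo 2 by -0.27, -0.31 and -0.59 (log2), so that steadiness belongs to the probe set. The same holds for Ptpn11, whose other 2 probe sets, with mean signals of 149 and 62.6, differed in embryo 1 by -0.24 and -0.22. For Canx they differed there by -0.09 and -0.03. By list, the lowest median SD between embryos was that of chaperones, 0.07 (log2) for the cytosol and for the endoplasmic reticulum alike, and of translation factors, 0.08. Much higher values were found for growth factors (0.43), macrophage genes (0.41), DNA replication (0.39), mitosis (0.38) and collagens (0.35), against 0.15 over all 7436 genes tested.

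**Figure D3:**
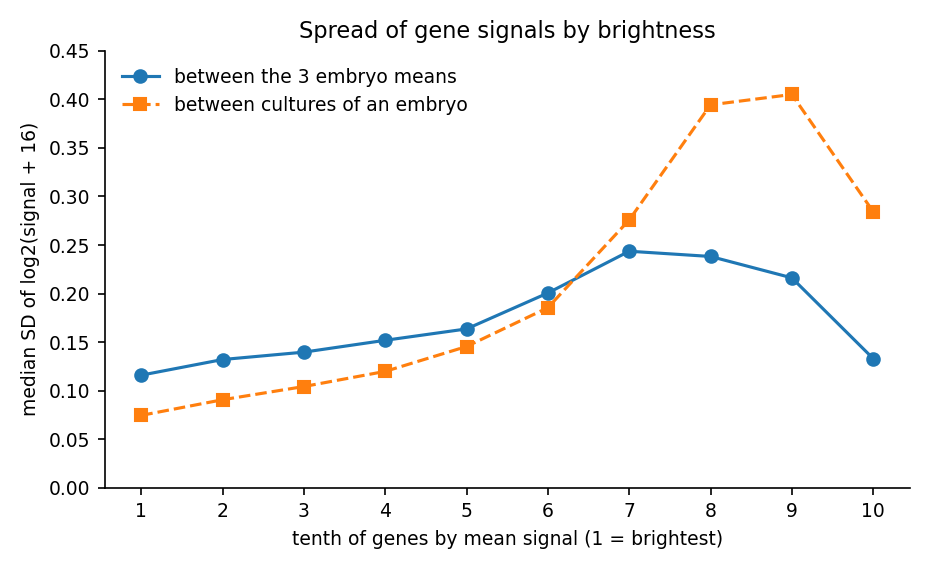
Median SD of log2(signal + 16) (vertical) in each decile of genes by mean signal (horizontal, 1 is the brightest), between the 3 embryo means (blue circles) and between cultures of an embryo (orange squares). From the brightest decile to the 7th the SD goes from 0.116 to 0.244 between embryos and from 0.0746 to 0.276 between cultures.

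Many genes differed between embryos by more than cultures of an embryo did. The median SD of the genes tested was 0.15 (log2) between the 3 embryo means and 0.12 between single cultures of an embryo. Between the means of embryos 1 and 3 alone it was 0.08. Means over cultures vary less than single cultures do, so these SDs cannot be compared directly. With limma's moderated F test over cultures, 3736 of the 7436 genes above the 40th percentile of signal passed a Benjamini-Hochberg adjusted p of 0.05, which is 50.2%. Cultures are replicates of an embryo and not of wild type embryos in general, and p-values measure the spread between cultures only. Nothing in the labels says whether cultures of 1 embryo were handled apart from those of another, so an embryo's own features and its handling cannot be told apart. Without embryo 2 the number was 1141. Each embryo was also set against the mean of the other 2. These 3 comparisons share the same arrays and are not independent. Embryo 2 was higher for 1689 genes (22.7%) and lower for 1844 (24.8%), embryo 3 higher for 1366 (18.4%) and lower for 1334 (17.9%), and embryo 1 higher for 621 (8.35%) and lower for 499 (6.71%). The total for embryo 1, 1120, went to 650 without its culture 1 and to 693 without its culture 2.

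Embryo 2 had lower signals of cell division genes and embryo 3 higher ones. Of 43 replication genes tested, 41 were lower in embryo 2 (median -0.63, log2) and 41 higher in embryo 3 (median 0.49), and of 53 mitotic genes 48 were lower in embryo 2 (median -0.59) and 49 higher in embryo 3 (median 0.50). Over all genes tested the medians were -0.01 and 0.00, with 24.8% lower in embryo 2 and 18.4% higher in embryo 3. Pcna had signals of 6606, 6412 and 6434 in the cultures of embryo 1, 6056, 5619 and 5599 in embryo 2, and 7236, 7064, 7099 and 7368 in embryo 3, so the embryos did not overlap. Its difference in embryo 2 was -0.25 (log2, SE 0.04, limma adjusted p = 0.000202). Top2a had 2749, 2762 and 2572 in embryo 1, 1602, 1729 and 1645 in embryo 2, and 3480, 3119, 3317 and 3418 in embryo 3, again without overlap, and its difference in embryo 2 was -0.85 (SE 0.05, limma adjusted p = 6.44e-09). The helicase subunit Mcm6 differed by -0.89 and Cdc20 by -0.60. Ube2s, the brightest mitotic gene, differed by -0.04 (limma adjusted p = 0.622) and did not pass. The 32 mitotic genes with CCAAT in a window had a median of -0.61 in embryo 2 and the 12 without it -0.55.

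Contractile genes went the other way. Of 22 tested, 18 were higher in embryo 2 (median 0.48, log2) and 1 lower, and 17 were lower in embryo 3 (median -0.34). Over all genes tested, 22.7% were higher and 24.8% lower in embryo 2, and 17.9% lower in embryo 3. Under 20 alternatives, quantile normalization among them, the contractile median in embryo 2 ran from 0.35 to 0.51. Acta2 had 16892, 16900 and 17739 in the cultures of embryo 1, 23651, 25226 and 24239 in embryo 2, and 18690, 15597, 15936 and 16206 in embryo 3. Embryo 2 lay above all other cultures, and embryos 1 and 3 overlapped. The difference was 0.53 (SE 0.05, limma adjusted p = 2.04e-06), while its other probe set, at a mean signal of 113, differed by 0.03. Ccn2 differed by 0.60 and Tagln by 0.47. The gene with the largest difference, calponin 1, Cnn1, picked after its values were seen, had 1484, 4469 and 1019 in embryos 1, 2 and 3. Contractile genes with a CArG box in a window, 4 of those tested, had a median of 0.69 in embryo 2, and the 14 without one 0.45. The 4 ran from 0.18 to 0.94, within the range of the 14, from -0.08 to 1.85. Of the actin list, which shares Tpm1 and Tpm2 with the contractile list, 29 of 42 were higher in embryo 2 (median 0.23) and 4 lower, and with quantile normalization 20 were higher (median 0.09). Of 18 integrin and adhesion genes 11 were higher and 3 lower, among them Itgb1, the common integrin beta chain, at 0.65 and Itgav at 0.45.

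Several other groups stood apart in embryo 2, where 22.7% of all genes tested were higher and 24.8% lower. Macrophage genes were higher for 17 of 19 tested (median 0.68, log2) and none was lower, with C1qa at 0.89, Lyz1 at 0.67 and Csf1r at 0.66. The summed signal of all 26 markers ran from 7266 to 7579 over its cultures, against 4744 to 5103 in embryo 1 and 3902 to 4605 in embryo 3. The 22 epithelial markers summed to between 1382 and 1602 in embryo 2, against 744 to 864 in embryo 1 and 691 to 839 in embryo 3, of which none was at 0. The 28 skeletal muscle markers summed to between 4611 and 5129, against 1391 to 1603 and 984 to 1224, and Acta1 alone was most of that. Dim signals ran higher in embryo 2 as well, though they overlapped with embryo 3. The 73 genes known for other organs summed to between 1564 and 1847 in embryo 2, against 1056 to 1461 in embryo 1 and 1152 to 1638 in embryo 3. At the bright end, the 99th percentile of signal was 10786 to 11022 in embryo 2, 9699 to 10035 in embryo 1 and 9795 to 10484 in embryo 3. The part of other cells, of the dim signals and of the bright end in the differences of embryo 2 was not tested. Glycolysis genes were higher for 11 of 18 (median 0.24, or 0.14 with quantile normalization) and lower for 1, and among mesenchymal transcription factors 14 of 26 were lower (median -0.26), with Prrx1 at -0.79. Immediate early genes were lower for 11 of 21 (median -0.15), Egr1 by -1.90 and Jun by -0.69, and higher for 3, with the phosphatase Dusp1 at 0.94. Ribosomal protein genes were higher for 26 of 48 by a median of 0.14. With quantile normalization 5 were higher and the median was -0.0038, and without culture 2 of embryo 2 there were 12.

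Growth factor and matrix genes of embryo 2 were split. Over all genes tested, 22.7% were higher and 24.8% lower in embryo 2. The shares were 8.35% and 6.71% in embryo 1, and 18.4% and 17.9% in embryo 3. Among 40 growth factor genes 16 were higher and 18 lower, with Igfbp7 at 0.88, and pleiotrophin at -1.13 and Igf2 at -0.57. Among 51 glycoprotein and proteoglycan genes 17 were higher, such as Thbs1 at 0.57 and Sparc at 0.29, and 22 lower, with Lum, the proteoglycan lumican, at -3.58. Of 20 collagen genes tested, 11 were higher in embryo 1 (median 0.27) and 4 lower, 9 were higher in embryo 2 and 8 lower, and 3 were higher in embryo 3 and 9 lower. Over all 36 collagen genes, with no filter on signal, the median in embryo 1 was 0.04. In embryo 1 Col3a1 differed by 0.38 and Col6a3 by 0.66, whereas Col1a2 differed by -0.11 and Col1a1 by 0.05 and did not pass. HOX genes were lower in embryo 3 for 7 of 13 tested (median -0.33), with Hoxb2 at -0.94, and 1 was higher, Hoxd13, the gene at the far end of its cluster, at 1.18. The mean deviation of the tested HOX genes was 0.07 (log2) in culture 1 of embryo 3, and lay between -0.18 and -0.17 in its other 3 cultures. The median for embryo 3 was -0.14 without culture 3 of embryo 1 or without culture 1 of embryo 2, and -0.19 without culture 3 of embryo 2, with 14 genes tested in each.

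**Figure D4:**
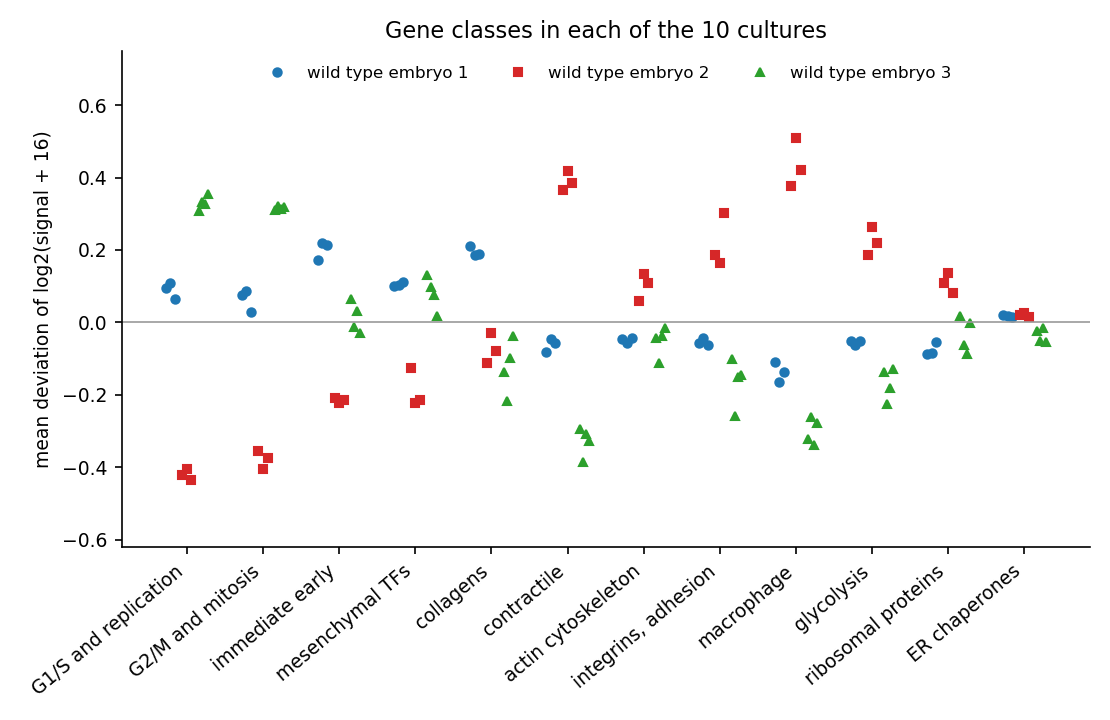
Mean deviation of log2(signal + 16) from the mean of the 3 embryos (vertical) for the tested genes of 12 classes (horizontal), as 1 point for each of the 10 cultures, by wild type embryo. Replication genes lie between -0.43 and -0.41 in embryo 2 and between 0.31 and 0.35 in embryo 3, and contractile genes between 0.37 and 0.42 in embryo 2 and between -0.39 and -0.29 in embryo 3.

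The largest F statistic belonged to Xist, the RNA that coats the inactive X chromosome, followed by Lum, Gjb2, Sdc4 and Rpgrip1. Xist signals were 2923, 2894 and 3392 in embryo 1, 3187, 2488, 3252 and 3004 in embryo 3, and 36.2, 36.4 and 41.0 in embryo 2. The Y-linked genes showed the reverse. Eif2s3y had means of 2.96, 350 and 2.16 in embryos 1, 2 and 3, Uty 11.6, 149 and 7.597, and Kdm5d 8.34, 88.8 and 6.39. By these genes, embryos 1 and 3 had the pattern of female cells and embryo 2 that of male cells. Every difference of embryo 2 from the other embryos thus went together with sex, and the part of sex cannot be told apart. Xist in embryo 2 differed by -5.82 (log2, SE 0.08, limma adjusted p = 1.19e-15). Since each embryo is set against the mean of the other 2, such a gene also appears as higher in embryos 1 and 3, whose cultures overlap.

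Lum, which encodes a collagen-binding proteoglycan, had 676, 576 and 539 in the cultures of embryo 1, 78.4, 78.7 and 88.4 in embryo 2, and 2220, 2061, 2275 and 2324 in embryo 3, with no overlap between embryos. Gjb2, a connexin of gap junctions, had 1700, 1756 and 1768 in embryo 1, 264, 264 and 267 in embryo 2, and 1435, 1480, 1418 and 1450 in embryo 3. Its difference in embryo 2 was -2.51 (SE 0.05, limma adjusted p = 4.61e-14). Cxcl5, a chemokine for neutrophils, had means of 756, 101.3 and 3177 in embryos 1, 2 and 3. Gas1, a membrane protein named for its rise in arrested fibroblasts, had 2345, 324 and 3438, and Pdgfra, the other PDGF receptor and a common mesenchymal marker, 852, 191 and 1200. The amino acid transporter Slc1a5 had 584, 86.9 and 528. For Sdc4, a cell surface proteoglycan, the probe set used had 3153, 508 and 4455, but its other probe set had 224, 268 and 235, which goes against it in direction.

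Among the genes highest in embryo 2, Acta1 had 582, 586 and 657 in the cultures of embryo 1, 4128, 3580 and 3901 in embryo 2, and 327, 379, 407 and 367 in embryo 3, and no embryos overlapped. Its difference was 2.99 (SE 0.07, limma adjusted p = 4.1e-13). Glipr1 had means of 555, 2678 and 549 in embryos 1, 2 and 3, and Plac8 364, 1864 and 254. The brain fatty acid binding protein Fabp7 had 145, 805 and 65.2, the transglutaminase Tgm2 180, 900 and 87.7, Bex1 58.4, 504 and 50.6, and the epithelial 14-3-3 protein Sfn 6.98, 250 and 38.9.

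Some genes were far lower in 1 embryo than in the others. Nol11, a nucleolar protein of ribosome assembly, had 771, 814 and 813 in the cultures of embryo 1, 745, 712 and 810 in embryo 2, and 14.3, 25.6, 16.1 and 13.9 in embryo 3. Its difference in embryo 3 was -4.58 (SE 0.10, limma adjusted p = 3.1e-13). A second probe set of Nol11 differed by -3.62 there, and the remaining one, with a mean signal of 209, by -0.23. Ifi202b, an interferon-inducible gene, had means of 281, 166 and 1.88 in embryos 1, 2 and 3. Tmem87a had 26.4, 258 and 287. Amacr, a racemase of fatty acid oxidation, had the reverse, 33.7, 27.5 and 373. Rpgrip1, a protein known from photoreceptor cilia, had 94.2, 996 and 1226, while its other 3 probe sets had mean signals between 3.76 and 10.2. The other named genes of embryo 3 included the cell death gene Pmaip1 (802, 1539 and 168), the lipase Mgll (820, 735 and 152) and Cd200 (348, 157 and 32.3), all lower there, and the Wnt antagonist Sfrp2 (142, 50.7 and 392), the enkephalin precursor Penk (124, 55.2 and 427) and Wdfy1 (210, 164 and 809), all higher. Embryo 1 was marked by higher Fmod, fibromodulin (1256, 289 and 573), Cap1, which recycles actin (3731, 833 and 2230), and the elastic fibre protein Mfap4 (280, 48.9 and 171). It was lower for the binding protein Igfbp2 (253, 965 and 729), for the amidating enzyme Pam (47.4, 310 and 80.5) and for Krtap12-1 (39.7, 173 and 82.4). For Krtap12-1 the cultures of embryo 1 ran from 14.8 to 67.0 and overlapped with those of the other embryos, whose lowest was 38.6.

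**Figure D5:**
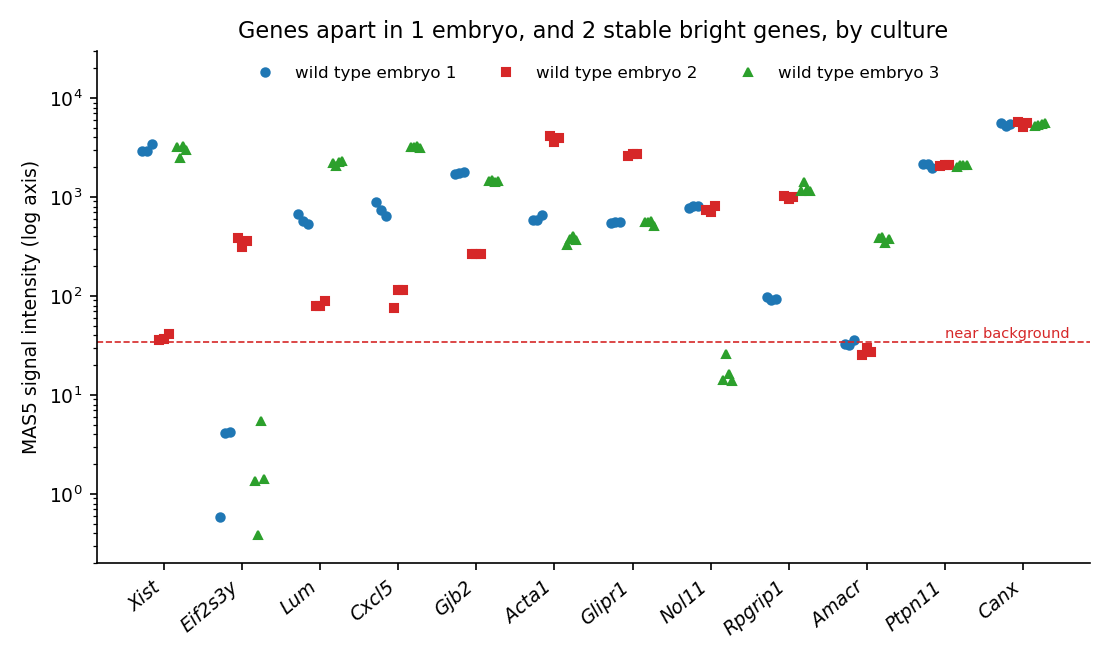
MAS5 signal intensity (vertical, log axis) of 12 genes in each of the 10 cultures, by wild type embryo, with the near-background bound of 34.2 as a dashed line. Xist, Lum, Cxcl5 and Gjb2 are lowest in embryo 2, Eif2s3y, Acta1 and Glipr1 highest there, Nol11 lies between 13.9 and 25.6 in embryo 3, and Ptpn11 and Canx are level in all cultures.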

How the data were processed

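Expression was measured on 20 Affymetrix arrays of 22690 probe sets, and the 10 wild type arrays were used. The authors deposited linear signal intensity values that the submitters' processing notes credit to MAS5, with the version not given in the sources used here. Equal trimmed means were measured from the files. No further scaling was applied. GEO's annotation of the platform pairs 20380 probe sets with a single symbol, which were kept. Left out were 691 with more symbols, 1555 without an entry and 64 controls. Genes above the 40th percentile of mean signal (83.9) were tested on log2(signal + 16) with limma 3.58.1 in R 4.3.3 over cultures, by the F test and by each embryo against the mean of the other 2, with Benjamini-Hochberg adjustment at 0.05 over 7436 genes. The code was checked on simulated data. The named genes were the 30 brightest, up to 6 brightest and 3 dimmest of each list, the E2F and sex-linked genes, those next to a threshold, the 5 steadiest of the brightest decile, the 5 with the largest F, and the 8 highest and 8 lowest in each embryo. Other genes were named after their values were seen. The members and lists were chosen with earlier results of these data known. Promoters came from RefSeq (GRCm38.p6), matched for 9882 of 12393 genes, counting a gene once if any of its windows matched. No pairing of cultures across embryos by their number was seen. In deviations from the embryo mean, 0 of 9 pairs with the same number correlated above 0.1, against 4 of 24 with different numbers. Whether cultures shared a batch was not tested. Alternatives were other pseudocounts, filters, normalizations, probe set rules and bounds, culture number as a block, and leaving out cultures or embryos. The number of arrays limits the precision.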

Additional observations from a re-analysis of the deposited data

Results flagged for a closer look

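In embryo 3, the only embryo with 4 cultures, 64 sets of values were examined for a culture that lay far from the other 3, and 4 were marked, where chance marks about 1 in 20 such sets. The gap to the nearest culture, as a share of the whole range, was compared with a critical value of 0.829. It was 0.840 for the mean log2 level of the tubulin genes (culture 2) and 0.973 for that of the HOX genes (culture 1). For single ribosomal protein signals, both in culture 2, it was 0.856 for Rps2 and 0.903 for Rps14.

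Probe sets left out of the ranking also held bright signals. Of the probe sets with several gene symbols, 76 reached the signal of the gene ranked 100, the brightest at 21700. Of the probe sets that the annotation does not list, 22 did so, the brightest at 18759. None of these could be given to 1 gene, so the ranking has no entry for them.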

How the results depend on the processing

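Of 290 values of the main results under alternatives, 279 stayed within the tolerance and 11 moved. The cause was not tested, here or for the 132 named values that moved and the 18 that lost the threshold. Testing every probe set gave 5726 differences between embryos and 5511 for embryo 2, over more features. Leaving out 1 culture or embryo gave 1141 to 3829 differences between embryos, the lowest without embryo 2, and 650 to 1151 for embryo 1. With the middle probe set of each gene, 64 of the 100 brightest genes were shared and 1 of them was a collagen gene. The median SD between embryos, 0.1476, ran from 0.0813 to 0.1563 without 1 embryo, and that between cultures was 0.1033 with a pseudocount of 64, 0.1687 without a filter and 0.1363 with the middle probe set. Of the named values 3 turned sign, all for Sdc4 with the middle probe set, at -0.2153, 0.2297 and -0.0144 in embryos 1, 2 and 3. With culture number as a replicate block, 3173 genes differed between embryos, against 3736 without it. Brightness over background limits the dim genes, since signals under the bound of 34.2 have no resolved order.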
